A study of Homo sapiens with 10 samples.

Results

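The genes described here are the chloride channel gene CFTR, 4 mucin genes (MUC1, MUC13, MUC16 and MUC5AC), the 3 trefoil factor genes (TFF1, TFF2 and TFF3), the disulfide isomerase gene AGR2 and the adhesion gene CEACAM6. They were taken by Ensembl gene ID as a set of products of mucus-secreting and ductal epithelium, and all 10 were found among the 20289 genes of the deposited table. The 10 libraries hold ribosome footprints, the short mRNA pieces that ribosomes shield from nuclease, of 2 established human lines of pancreatic ductal adenocarcinoma, CFPAC-1 and PANC-1. CFPAC-1 was derived from a patient with cystic fibrosis and carries a CFTR mutation. The groups were CFPAC-1 with 0.1% DMSO (2 libraries), CFPAC-1 with 10 µM imidazole ketone erastin (IKE, 2 libraries), PANC-1 with 0.1% DMSO (2 libraries) and PANC-1 with 1 µM IKE (4 libraries). IKE belongs to the erastin class of ferroptosis inducers, which block cystine uptake. Dead cells and debris were washed off, so the IKE libraries hold survivors only. Cells grew in DMEM or IMDM, and the labels do not say which line grew in which. The treatment label gives 24 h, whereas the extract protocol describes dosing on consecutive days, so the length of exposure is uncertain. The titles call the replicates biological, and nothing says whether they were separate cultures, so p-values measure the spread between these libraries. No IKE dose was used in both lines.

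Ductal cells of the pancreas secrete bicarbonate-rich fluid, and CFTR is the apical channel that this secretion depends on. Mucins are long glycoproteins that either stay anchored in the cell membrane (MUC1, MUC13, MUC16) or are released and form the mucus gel (MUC5AC). Trefoil factors are small, disulfide-knotted peptides that mucous cells secrete together with mucins, AGR2 is an endoplasmic reticulum protein that helps mucins fold, and CEACAM6 is a glycolipid-anchored adhesion protein. Several of these genes are known as markers of the well-differentiated, classical type of pancreatic cancer.

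Positions are those of RefSeq on GRCh38.p14, the build that the submitters' processing notes name without a patch. CFTR (ENSG00000001626) lies on chromosome 7 (117480025 to 117668665), as does AGR2 (ENSG00000106541, 16791811 to 16804999). MUC1 (ENSG00000185499) is on chromosome 1 (155185824 to 155192915), MUC13 (ENSG00000173702) on chromosome 3 (124905442 to 124934751) and MUC5AC (ENSG00000215182) on chromosome 11 (1157953 to 1201138). Chromosome 19 carries MUC16 (ENSG00000181143, 8848844 to 9065751) and CEACAM6 (ENSG00000086548, 41755530 to 41772211). The trefoil genes lie close together on chromosome 21, with TFF3 (ENSG00000160180) at 42311667 to 42315409, TFF2 (ENSG00000160181) at 42346357 to 42350994 and TFF1 (ENSG00000160182) at 42362282 to 42366535. All 10 genes are protein-coding.

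The 250 bases before the RefSeq start of 4 of the genes are shown because 3 of them (MUC1, MUC13 and CEACAM6) differed strongly between the lines, while AGR2 was abundant in both. They are RefSeq reference sequence on GRCh38.p14, printed in the direction of transcription. MUC1 is chr1:155192916-155193165 (minus strand), MUC13 is chr3:124934752-124935001 (minus strand), AGR2 is chr7:16805000-16805249 (minus strand) and CEACAM6 is chr19:41755280-41755529 (plus strand). Capitals mark matches, on either strand, to 7 searched motifs.
MUC1: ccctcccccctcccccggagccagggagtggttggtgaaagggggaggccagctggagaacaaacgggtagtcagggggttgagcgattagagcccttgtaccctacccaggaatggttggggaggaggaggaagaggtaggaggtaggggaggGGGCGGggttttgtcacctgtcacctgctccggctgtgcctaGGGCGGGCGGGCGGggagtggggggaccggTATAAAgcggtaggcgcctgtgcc
MUC13: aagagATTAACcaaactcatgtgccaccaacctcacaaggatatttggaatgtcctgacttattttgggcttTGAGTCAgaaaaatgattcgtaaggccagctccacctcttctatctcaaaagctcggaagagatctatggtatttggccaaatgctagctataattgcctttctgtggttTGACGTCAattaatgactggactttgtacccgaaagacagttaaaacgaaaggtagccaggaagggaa
AGR2: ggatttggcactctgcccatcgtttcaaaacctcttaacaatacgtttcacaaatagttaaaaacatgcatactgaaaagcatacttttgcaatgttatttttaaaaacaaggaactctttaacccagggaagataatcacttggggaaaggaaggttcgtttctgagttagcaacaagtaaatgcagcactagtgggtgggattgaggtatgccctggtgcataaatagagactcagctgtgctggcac
CEACAM6: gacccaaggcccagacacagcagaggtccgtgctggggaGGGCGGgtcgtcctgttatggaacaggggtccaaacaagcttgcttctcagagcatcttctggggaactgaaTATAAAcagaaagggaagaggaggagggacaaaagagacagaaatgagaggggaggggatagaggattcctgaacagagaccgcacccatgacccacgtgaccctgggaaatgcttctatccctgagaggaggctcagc

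The TATA box was searched as TATAAA and was found in 10.7% of 35093 windows of the same length. The GC box, GGGCGG, was found in 42.6% of them and the letters CCAAT in 32% of them. The AP-1 site, TGANTCA, was found in 6.57% and the cAMP response element, TGACGTCA, in 1.65%. The forkhead core, TGTTTAC, was found in 2.98% and the HNF1 half-site, GTTAAT, in 6.23%. The MUC1 window held a TATAAA that begins 24 bases before the start and 4 GC boxes, 3 of which overlap each other. The MUC13 window held the AP-1 letters, the cAMP response letters and 1 HNF1 half-site on the opposite strand. No 2 different motifs overlapped in the printed windows. The CEACAM6 window held 1 TATAAA and 1 GC box, and the AGR2 window held none of the 7. G and C made up 66.0% of the MUC1 window, 55.2% of that of CEACAM6, 41.6% of that of MUC13 and 40.4% of that of AGR2, against a median of 58.0% over all windows. These matches describe letters only, and footprint levels do not measure promoter activity.

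Levels are in FPKM as deposited, which counts fragments relative to gene length and to the library's mapped fragments. Relative depth was read from the steps between low values and set to 1.00 for CFPAC-1 DMSO replicate 1. It was 0.916 to 1.17 in the other CFPAC-1 libraries and 0.211 to 0.875 in the PANC-1 libraries, lowest in IKE replicates 4 and 2 (0.239). Over 122 genes with few reads, the share of low values that came out whole was 0.509 to 0.673 in the PANC-1 libraries. Their depths, and the steps built on them, are therefore approximate. Replicates of 1 group correlated at 0.979 or above in CFPAC-1 and at 0.899 to 0.965 in PANC-1 over log2 values, and the median residual SD was 0.18 in the former and 0.481 in the latter line. PANC-1 IKE replicate 4 stood apart: its 10 most abundant genes held 23.1% of summed FPKM, against 8.51% and 8.58% in untreated PANC-1. It also held the highest level of genes typical of CFPAC-1. Of the genes that reached 200 FPKM in each CFPAC-1 library, 26 besides those described here were at 0 in replicate 2 of untreated PANC-1. Their summed level in IKE replicate 4 was 0.931% of the CFPAC-1 DMSO mean, against 0.229% in DMSO replicate 1 and 0.174%, 0.00198% and 0.0202% in IKE replicates 1 to 3. Marker genes of other cell types were not analysed here.

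The untreated lines differed in most of these genes. MUC1, MUC13, MUC16, MUC5AC, TFF2 and CEACAM6 were lower in PANC-1 than in CFPAC-1, CFTR was detected in CFPAC-1 only, and TFF3 in PANC-1 only. AGR2 was among the most abundant genes of both lines. Of the 9 genes that reached a mean of 1 FPKM over the 10 libraries and were tested, 6 passed the threshold lower in PANC-1 and 0 higher (limma, Benjamini-Hochberg adjusted p under 0.05), where 18.5% of all 13125 genes tested passed lower, 15.1% higher and 33.6% in either direction. By replicate values alone, 8 of the 10 genes lay lower in PANC-1 without overlap and 1, TFF3, higher, against 36.8% and 33.8% of all genes tested. MUC13, MUC16, MUC5AC and TFF2 averaged under 1 FPKM over the PANC-1 libraries and TFF3 was at 0 in CFPAC-1, so these genes reached the limit through 1 line, and the count describes the genes and does not measure how unusual they are. The median log2 difference was -2.82 over the 9 genes and -0.028 over all genes tested. Level differences in such bulk libraries do not separate fewer expressing cells from less RNA per cell.

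**Figure D1:**
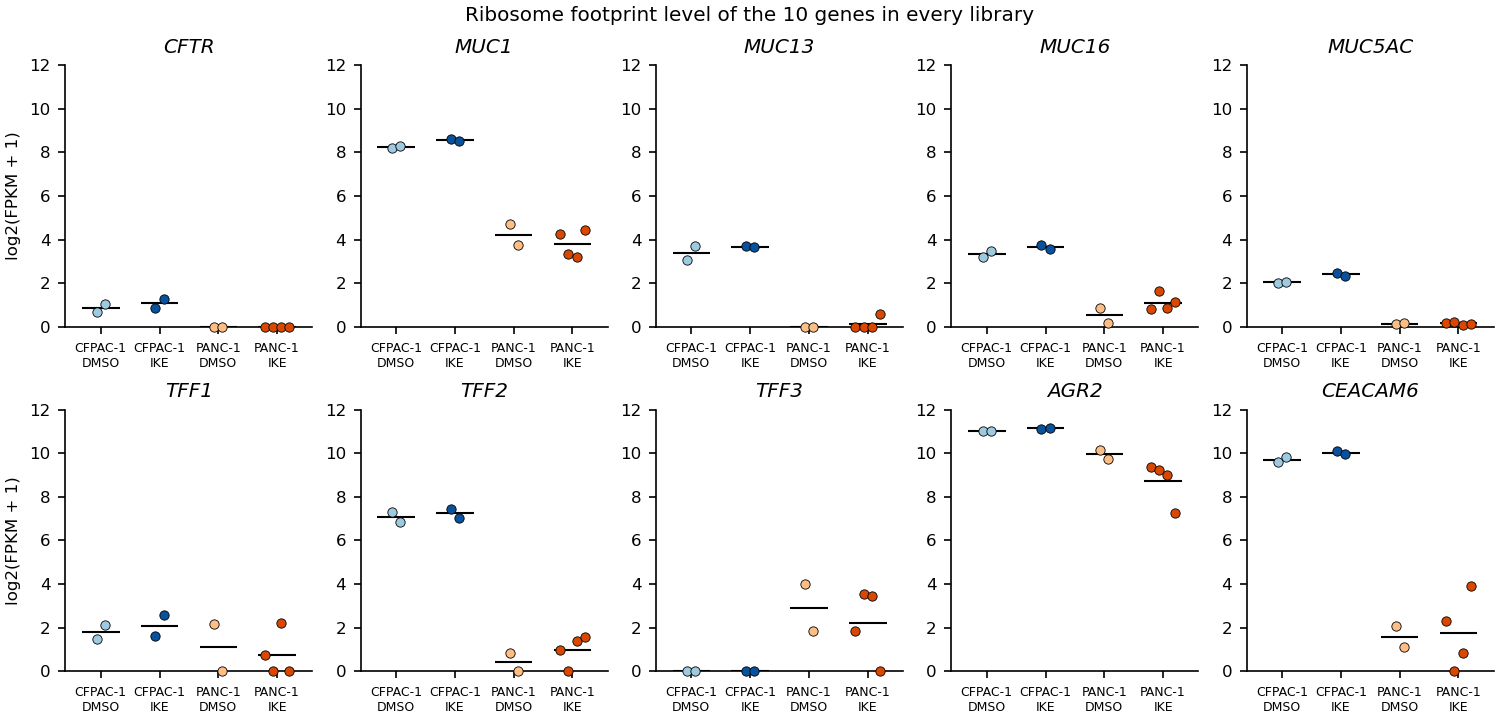
Footprint level, as log2(FPKM + 1), of each of the 10 genes in every library (points) with the group mean (line), for CFPAC-1 and PANC-1 with DMSO or IKE. MUC1, TFF2 and CEACAM6 are high in the CFPAC-1 libraries and low in the PANC-1 libraries, AGR2 is high in both, and TFF3 is at 0 in every CFPAC-1 library.

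CFTR, the channel itself, was barely detected. Its level was 0.59 and 1.04 FPKM in CFPAC-1 DMSO replicates 1 and 2 and 0.81 and 1.46 FPKM in IKE replicates 1 and 2, and it was listed at 0 in all 6 PANC-1 libraries. Once scaled by relative depth, the CFPAC-1 values stood at 5, 8, 8 and 12 equal steps, each within 0.03 of a step of a whole number. These are the smallest whole numbers that the values allow, and true counts could be multiples of them. The step size was fitted to bring the values near whole numbers, so their closeness is no separate check. A count of 3 such steps, the limit that a 0 allows for counting error alone, would be 0.702 and 1.08 FPKM in untreated PANC-1, which overlaps the CFPAC-1 DMSO values. In PANC-1 IKE replicate 1, the deepest of that line, it would be 0.407 FPKM, under all 4 CFPAC-1 values. The gene was under the mean limit and was not tested. In the fit without that limit its log2 difference was -0.85 (SE 0.18, adjusted p = 0.00948 by limma over 16811 genes). The 6 PANC-1 values of CFTR at 0 add no spread to this fit, so its SE and adjusted p can be too small. In the shallower PANC-1 libraries taken singly, a CFTR level like that of CFPAC-1 was not distinguishable from 0 at this depth.

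Of the membrane mucins, MUC1 was the most abundant. Untreated CFPAC-1 had 294 and 310 FPKM and untreated PANC-1 had 25.5 and 12.4 FPKM, 15.95-fold lower by the means. The log2 difference was -4.01 (SE 0.47, adjusted p = 0.000107 by limma), and the lines did not overlap. MUC13, a mucin of gut and ductal epithelium, reached 7.50 and 12.1 FPKM in CFPAC-1 and was listed at 0 in both PANC-1 DMSO libraries (log2 difference -3.40, SE 0.39, adjusted p = 9.71e-05 by limma). MUC16, which carries the CA125 antigen, was at 8.12 and 10.25 FPKM in CFPAC-1 against 0.83 and 0.13 FPKM in PANC-1, a log2 difference of -2.82 (SE 0.41, adjusted p = 0.000521 by limma). Every CFPAC-1 value of these 3 mucins lay above every PANC-1 value. MUC13 was at 0 in every PANC-1 library except IKE replicate 4 (0.52 FPKM). Values at 0 add no spread to the fit, so the SE and adjusted p of MUC13 can be too small. The sizes for genes at or near 0 in PANC-1 are set largely by the pseudocount of 1: with 0.1 and 5 in its place, the log2 difference was -6.59 and -1.55 for MUC13 and -4.32 and -1.37 for MUC16, and both passed.

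The gel-forming mucin MUC5AC was low even where it was seen. Its level was 3.05 and 3.17 FPKM in CFPAC-1 DMSO and 0.10 and 0.12 FPKM in PANC-1 DMSO, a log2 difference of -1.89 (SE 0.34, adjusted p = 0.0019 by limma). On the scale of log2(FPKM + 1) this understates the 28.3-fold ratio of the means, and with a pseudocount of 0.1 or 5 the difference was -3.94 or -0.67. The coding sequences of MUC1, MUC5AC and MUC16 contain tandem repeats, where short footprints have several equal places to map, and how the authors treated such reads is not given in the sources used here.

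The 3 trefoil genes had 3 different patterns. TFF2, the trefoil peptide of gastric gland mucus, was at 157 and 115 FPKM in CFPAC-1 DMSO and at 0.80 and 0 FPKM in PANC-1 DMSO, a log2 difference of -6.66 (SE 0.52, adjusted p = 9.15e-06 by limma) whose size also depends on the pseudocount. TFF3, the intestinal trefoil peptide, went the other way: it was listed at 0 in all 4 CFPAC-1 libraries and stood at 14.8 and 2.57 FPKM in untreated PANC-1. The groups did not overlap, but the TFF3 difference missed the threshold (log2 difference 2.91, SE 1.07, adjusted p = 0.0597 by limma). It passed without PANC-1 IKE replicate 4 (adjusted p = 0.0117) or PANC-1 DMSO replicate 2 (0.0433), with a pseudocount of 0.1 (0.0454), on the 4 DMSO libraries alone (0.0378) and with quantile normalization (0.0481), which then gave 1 gene higher and 6 lower. Without PANC-1 DMSO replicate 1, the higher of the 2 TFF3 values, the difference was 1.84 (adjusted p = 0.333), and with a pseudocount of 5 it was 1.29 (0.0954). TFF3 passed in 8 of 20 alternatives. TFF1, which is secreted by gastric surface cells and is estrogen-responsive in breast cancer, was low in both lines, at 1.80 and 3.28 FPKM in CFPAC-1 and 3.55 and 0 FPKM in PANC-1. Its values overlapped, with a log2 difference of -0.70 and a 95% interval from -2.58 to 1.19, so neither a lower nor a higher level in PANC-1 was shown. In depth-scaled steps the TFF1 values were 3 and 5 in CFPAC-1 DMSO and 3 and 0 in PANC-1 DMSO. In PANC-1 DMSO replicates 1 and 2, 1 such step of TFF1 was 1.18 and 1.83 FPKM. No steps were found for TFF3, so how few footprints its 2.57 FPKM holds is unknown, and its 4 CFPAC-1 values at 0 add no spread to the fit.

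AGR2 was abundant in both lines. It stood at 2049 and 2070 FPKM in CFPAC-1 DMSO and at 1147 and 844 FPKM in PANC-1 DMSO, where it ranked 67 and 63 among the genes above 0 in the former libraries and 211 and 226 in the latter. The lines did not overlap and the means differed 2.07-fold. The log2 difference of -1.06 (SE 0.59) missed the threshold (limma adjusted p = 0.193) in the model whose spread takes in all PANC-1 libraries. Without PANC-1 IKE replicate 4, which is no part of the contrast, the adjusted p was 0.00453, and on the 4 DMSO libraries alone it was 0.0331.

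CEACAM6 was abundant in CFPAC-1 and near the floor in PANC-1. It was at 770 and 903 FPKM in CFPAC-1 DMSO and at 3.17 and 1.13 FPKM in PANC-1 DMSO, a log2 difference of -8.13 (SE 0.99, adjusted p = 0.000146 by limma). The ratio of the means was 389. CEACAM genes share long near-identical stretches, so reads could be split among family members. The PANC-1 level of CEACAM6 was 0.379% and 0.135% of the CFPAC-1 DMSO mean in DMSO replicates 1 and 2, beside 0.229% in replicate 1 for the summed CFPAC-1 genes named above. Those genes were chosen for being at 0 in DMSO replicate 2, so they give no value for that library. The part of such shared signal in the PANC-1 values was not tested.

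**Figure D2:**
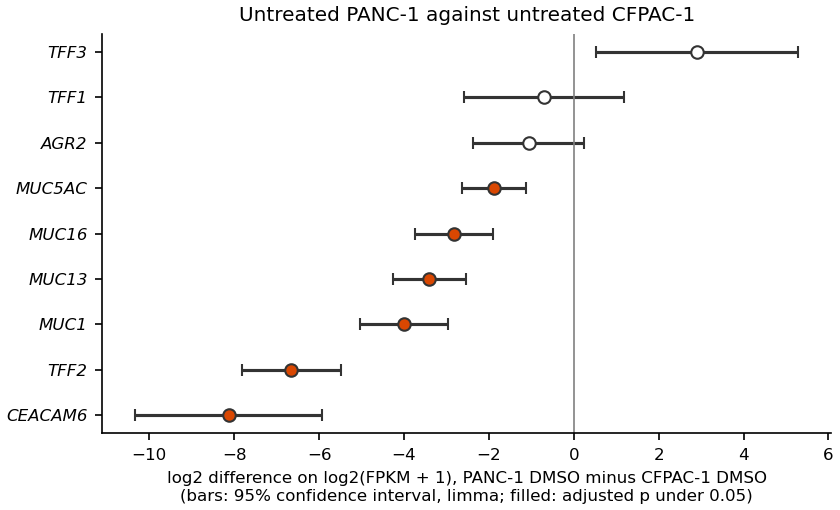
Log2 difference of the 9 tested genes between untreated PANC-1 and untreated CFPAC-1 (limma on log2(FPKM + 1); bars are 95% intervals, filled points have an adjusted p under 0.05). The 6 filled points lie between -1.89 (MUC5AC) and -8.13 (CEACAM6), and the open point of TFF3 lies at 2.91.

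Within CFPAC-1 DMSO the order of the levels per length was AGR2, CEACAM6, MUC1, TFF2, then MUC13 and MUC16, then MUC5AC and TFF1, then CFTR, with TFF3 at 0. The replicate ranges of MUC13 and MUC16 overlapped, as did those of MUC5AC and TFF1, so these neighbours are not ordered. The other neighbours did not overlap. Within PANC-1 DMSO, AGR2 stood far above MUC1, whose range overlapped that of TFF3. AGR2 made up 95.9% and 98.1% of the 10 genes' summed FPKM in untreated PANC-1 and 62.3% and 60.4% in untreated CFPAC-1. Likeness of profile was measured as the root mean square difference of log2(FPKM + 1) over the 10 libraries, after each gene was centred on its own mean. By this measure MUC5AC and MUC16 were closest (0.42), followed by MUC13 and MUC16 (0.54) and by CFTR and MUC5AC (0.56). The differences were not scaled by level, so genes near the floor, such as CFTR, have little room to differ. A small value therefore does not by itself show a shared pattern. TFF2 and CEACAM6, both far higher in CFPAC-1, stood at 1.17. These values describe 10 libraries of 2 lines.

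The next comparison asked how the secretory genes stood in CFPAC-1 cells that survived 10 µM IKE. None of the 8 genes tested passed the threshold (limma on the 4 CFPAC-1 libraries, adjusted p under 0.05), where 0.127% of all 12563 genes did, all of them higher, and 2 of the 8, MUC1 and CEACAM6, had an unadjusted p under 0.05. All 8 estimates lay above 0, with a median log2 change of 0.30 over the 8 genes and -0.016 over all genes tested. For 5 genes (MUC1, MUC16, MUC5AC, AGR2 and CEACAM6) both IKE values exceeded both DMSO values, where 20.8% of all genes did so and 22.9% lay lower without overlap. TFF3 was at 0 in all 4 libraries and CFTR was under the mean limit.

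MUC1 was at 389 and 362 FPKM in CFPAC-1 IKE replicates 1 and 2, against 294 and 310 FPKM with DMSO. The log2 change was 0.31 (SE 0.11, adjusted p = 0.337 by limma), a 1.24-fold ratio of the means. CEACAM6 was at 1079 and 1005 FPKM with IKE against 770 and 903 FPKM with DMSO, a log2 change of 0.32 (SE 0.12, adjusted p = 0.357 by limma). The replicate values were separate for both genes, but neither change passed after adjustment.

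MUC5AC was at 4.62 and 4.04 FPKM with IKE (log2 change 0.37, 95% interval -0.29 to 1.03), MUC16 at 12.6 and 11.1 FPKM (0.34, -0.20 to 0.88) and AGR2 at 2229 and 2271 FPKM (0.13, -0.11 to 0.36). None of these 3 intervals left 0 outside. MUC13 was at 11.95 and 11.7 FPKM with IKE, inside the range of its DMSO values. TFF2 was at 174 and 128 FPKM and TFF1 at 2.05 and 4.93 FPKM, and both overlapped their DMSO values. For TFF1 and TFF2 the replicates of each group differed by more than the group means did.

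CFTR in CFPAC-1 did not separate by treatment either. Its depth-scaled steps were 5 and 8 with DMSO and 8 and 12 with IKE, and the fit without a limit gave a log2 change of 0.23 (SE 0.26, adjusted p = 0.804 by limma).

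In PANC-1, the comparison asked the same of the survivors of 1 µM IKE. None of the 5 genes tested passed the threshold (limma on the 6 PANC-1 libraries), where 0.0159% of all 12611 genes did, 0.00793% higher and 0.00793% lower, and 1, AGR2, had an unadjusted p under 0.05. AGR2 was also the single gene of the 10 whose IKE and DMSO values did not overlap; 12.5% of all genes tested lay lower with IKE without overlap and 10.6% higher. The median log2 change was -0.42 over the 5 genes and -0.029 over all genes tested. CFTR, MUC5AC, MUC13, MUC16 and TFF2 were under the mean limit in this line.

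AGR2 was at 1147 and 844 FPKM in PANC-1 DMSO replicates 1 and 2 and at 657, 594, 518 and 151 FPKM in IKE replicates 1 to 4. All 4 IKE values lay under both DMSO values, and replicate 4 was far under the other 3. The log2 change of -1.23 (SE 0.54) did not pass (limma adjusted p = 0.445), with a 95% interval from -2.43 to -0.03. Without IKE replicate 4 it was -0.74 (adjusted p = 0.421). The 10 most abundant genes of a library held 9.29%, 16.2%, 12.2% and 23.1% of summed FPKM in IKE replicates 1 to 4. Replicate 3 had a smaller share than replicate 2 and also less AGR2. Replicate 4 had the highest share and the lowest AGR2 level, and the part of this share in the AGR2 level was not tested. By rank among the genes above 0, AGR2 stood at 211 and 226 with DMSO and at 334, 337, 419 and 1232 in IKE replicates 1 to 4.

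**Figure D3:**
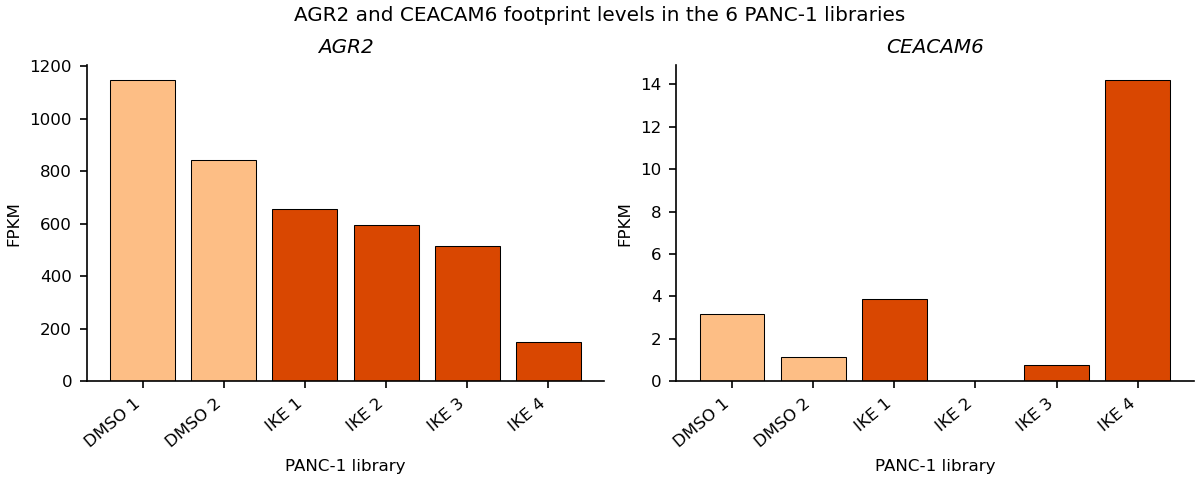
FPKM of AGR2 (left) and CEACAM6 (right) in each of the 6 PANC-1 libraries, 2 with DMSO (light) and 4 with 1 µM IKE (dark); each bar is 1 library. AGR2 is lower in every IKE library than in either DMSO library and lowest in IKE replicate 4 (151 FPKM), while CEACAM6 is highest in that library (14.2 FPKM) and at 0 in IKE replicate 2.

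CEACAM6 in PANC-1 was at 3.89, 0, 0.76 and 14.2 FPKM in IKE replicates 1 to 4 against 3.17 and 1.13 FPKM with DMSO. The groups overlapped (log2 change 0.18, SE 0.95, adjusted p = 0.952 by limma), and without IKE replicate 4 the sign turned (-0.54). As a share of the CFPAC-1 DMSO mean, CEACAM6 was at 0.465%, 0, 0.0909% and 1.70% in IKE replicates 1 to 4, beside 0.174%, 0.00198%, 0.0202% and 0.931% for the summed CFPAC-1 genes. Both measures were highest in replicate 4 and lowest in replicate 2.

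MUC1 was at 18.0, 9.12, 8.19 and 21.1 FPKM in PANC-1 IKE replicates 1 to 4, overlapping its DMSO values of 25.5 and 12.4 FPKM (log2 change -0.42, SE 0.48, adjusted p = 0.751 by limma). TFF3 was at 2.63, 10.7, 10.0 and 0 FPKM with IKE, as widely spread as with DMSO (log2 change -0.69, SE 0.96, adjusted p = 0.801 by limma). TFF1 was at 0.68, 0, 3.6 and 0 FPKM. Among the genes under the limit, MUC16 was at 0.74, 2.11, 0.84 and 1.21 FPKM, MUC5AC at 0.06 to 0.17 FPKM and TFF2 at 0 to 1.93 FPKM. MUC13 was listed at 0 in IKE replicates 1 to 3 and stood at 0.52 FPKM in replicate 4. Of the 10 genes, CFTR alone was at 0 in all 6 PANC-1 libraries.

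**Figure D4:**
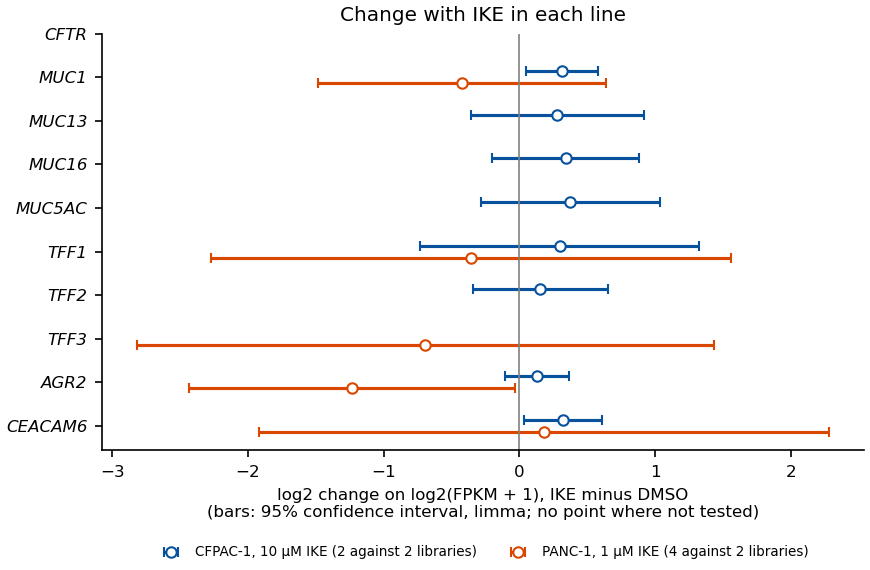
Log2 change with IKE of each tested gene in CFPAC-1 (10 µM, 2 against 2 libraries) and PANC-1 (1 µM, 4 against 2 libraries), from limma on log2(FPKM + 1) in each line alone, with 95% intervals. All 8 CFPAC-1 points lie between 0.13 and 0.37, the PANC-1 intervals are wider, and AGR2 in PANC-1 lies lowest at -1.23.

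The difference of the IKE effects, in which line and dose change together, was tested on all 10 libraries. None of the 9 genes tested passed the threshold (limma), where 0.0305% of all 13125 genes did, 0.00762% higher and 0.0229% lower, and none had an unadjusted p under 0.05. The IKE values of AGR2 lay above DMSO in CFPAC-1 and under DMSO in PANC-1, a difference of -1.36 (SE 0.77, adjusted p = 0.655 by limma). For MUC1 the difference was -0.73 (SE 0.62, adjusted p = 0.776 by limma). The 95% intervals, -3.08 to 0.36 for AGR2 and -2.10 to 0.63 for MUC1, leave room for effects in either direction. Without PANC-1 IKE replicate 4 the AGR2 difference was -0.87. The MUC1 difference was -0.24 without PANC-1 DMSO replicate 1 and -1.23 without replicate 2.

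Between the IKE-treated lines, where the dose also differs, PANC-1 lay under CFPAC-1 without overlap for 8 of the 10 genes, where 32.6% of all 13125 genes did, and none of the 10 lay above without overlap, where 28.7% did. No test was made of this pair of groups. MUC1 was at 14.1 ± 6.4 FPKM (SD, n = 4) in PANC-1 and 375 ± 19 FPKM (SD, n = 2) in CFPAC-1, and AGR2 at 480 ± 227 FPKM (SD, n = 4) and 2250 ± 30 FPKM (SD, n = 2).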

How the data were processed

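Ribosome footprints were measured in 10 libraries. Per the file headers, the authors deposited FPKM values, and each of the 10 columns carries the name of 1 library. Among tools and builds, the submitters' processing notes list GRCh38, RSEM, STAR, Bowtie2 2.2.8, fastp and DESeq2 without their roles. Annotation, strand setting and the treatment of reads with several matches were not given in the sources used here.

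Values were taken as log2(FPKM + 1) and tested with limma 3.58.1 (R 4.3.3, eBayes with trend), keeping genes whose mean over the fitted libraries reached 1 FPKM. P-values were adjusted over all of them (Benjamini-Hochberg), and genes passed at an adjusted p under 0.05. The lines and the difference of the IKE effects were fitted on all 10 libraries, each IKE effect on its own line, since the spread differed between lines. The fits were tested on simulated data. Pseudocount, filter, scaling, weights, trend, left-out libraries and a replicate block were varied.

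The 10 genes and the lists were chosen with earlier results of these data known. All 10 genes were to be named, with genes of 8 pathway lists and of the most similar profile. The table pairs Ensembl IDs with no names and the reference table matched 0 of them, so the 10 genes carry the names given with their IDs, and the lists, the cell type markers and other similar genes were not analysed here. Absolute depth is unknown: FPKM keeps relative depth only, and whole reads were not recovered for most genes. RefSeq promoter windows were found for 6 of the 10 genes.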

Additional observations from a re-analysis of the deposited data

Results flagged for a closer look

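MUC13 stood at 0.52 FPKM in PANC-1 IKE replicate 4 and at 0 in the other 3 IKE libraries, a gap as wide as the whole range. With 3 libraries at 0, any single value above 0 gives such a gap, so it says little of a gene this near the floor. The check needs at least 4 libraries, so it covered the 10 genes in PANC-1 IKE only, where 9 had any spread and 1 stood apart. Chance gives about 1 in 20 for normally distributed values, a rate that does not hold for genes with many values at 0.

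For AGR2 both CFPAC-1 IKE libraries lay above both DMSO libraries and all 4 PANC-1 IKE libraries lay under both DMSO libraries. The difference of the effects was -1.36 on the log2 scale and did not pass (limma adjusted p = 0.655, 0.315 to 1 over the 21 alternatives). Its size ranged from -1.58 to -0.78 over them, and without PANC-1 IKE replicate 4 it was -0.87.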

How the results depend on the processing

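The 6 genes lower in untreated PANC-1 (MUC1, MUC13, MUC16, MUC5AC, TFF2 and CEACAM6) passed in every alternative that tested them. MUC13, MUC16, MUC5AC and TFF2 reached the limit of 1 FPKM through CFPAC-1, so their passing does not measure how unusual they are. A limit of 5 FPKM on the mean kept 4 of the 10 genes in the test and called 3 (MUC1, TFF2 and CEACAM6). MUC13, MUC16 and MUC5AC were under that limit. Leaving out 1 PANC-1 IKE library gave 6 to 8 calls, the most without replicate 4. With library weights, on the DMSO libraries alone and with the replicate block, 8 were called. The replicate block added AGR2 (limma adjusted p = 0.0152) and TFF3 (0.0276), but it held replicates 1 and 2 only. Leaving out PANC-1 IKE replicate 4 alone also added AGR2 (0.00453) and TFF3 (0.0117), so the 2 alternatives are not independent. In each IKE comparison and in their difference 0 of the 10 genes were called in every alternative, the replicate block included. Over all genes, the calls ranged from 2474 to 5856 (4410 in the main analysis) between the lines, from 0 to 65 (16) for IKE in CFPAC-1, from 0 to 6 (2) for IKE in PANC-1 and from 0 to 5 (4) for the difference.

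Signs turned only for differences that passed no test, and the cause was not tested. The TFF1 difference between the lines was -1.79 to 0.39 with 1 library left out, above 0 without PANC-1 DMSO replicate 2. For IKE in CFPAC-1, leaving out 1 library gave -0.034 to 0.59 for MUC13, -0.18 to 0.78 for TFF1 and -0.067 to 0.37 for TFF2. For IKE in PANC-1 it gave -0.91 to 0.069 for MUC1, -1.77 to 0.38 for TFF3 and -0.54 to 0.77 for CEACAM6. TFF1 there was 0.31 with library weights and 0.38 without IKE replicates 2 and 4. CEACAM6 there was -0.43 with a pseudocount of 0.1 and also with the replicate block, -0.34 with library weights and -0.023 without IKE replicates 2 and 4. With the replicate block the AGR2 change in PANC-1 was -0.65 and its difference between the lines -0.78. The block was fitted on replicates 1 and 2 of each group only, without PANC-1 IKE replicate 4, so these values do not show an effect of blocking.

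Same-numbered libraries did not deviate together (correlations of -0.17 to 0.05 between groups), so the numbers were not taken as pairs. With 1 library left in a group, that library was assumed to vary like the others, and a gene under the mean limit in an alternative has no value there. The level that a few footprints make up differs by gene and library. In PANC-1 DMSO replicates 1 and 2, 3 depth-scaled steps were 0.702 and 1.08 FPKM for CFTR but 3.55 and 5.48 FPKM for TFF1. Steps were sought only for genes low in every library, which left out MUC1, TFF2, AGR2 and CEACAM6, and were found for CFTR and TFF1 only. The footprints behind the low TFF2 and TFF3 values are therefore unknown. Low levels limit what CFTR, TFF1, TFF2, TFF3, MUC5AC, MUC13, MUC16 and CEACAM6 can show in the PANC-1 libraries.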

Other observations

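Together the 10 genes made up 0.262% and 0.270% of summed FPKM in untreated CFPAC-1 and 0.315% and 0.308% in CFPAC-1 with IKE. In PANC-1 they made up 0.0850% and 0.0730% with DMSO and 0.0533%, 0.0452%, 0.0410% and 0.0147% in IKE replicates 1 to 4. AGR2 accounted for most of the sum in every library. Its share of the sum was 79.5% in PANC-1 IKE replicate 4, where MUC1 made up 11.1% and CEACAM6 7.46%.

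Among the 461 genes with at least 500 FPKM on average in the PANC-1 DMSO libraries, the AGR2 change with IKE ranked 5 from the lowest, and among all 12611 genes tested in that line it ranked 349. The AGR2 change did not pass the test, so this is a rank of estimates. The 461 genes were chosen by their DMSO level, which is the baseline of the change, so the rank among them is no support for a fall. Both ranks use the change of -1.23, which was -0.74 without IKE replicate 4.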
